A study of Mus musculus with 35 samples.

Results

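The 9 genes described here encode naive pluripotency transcription factors, namely Klf2, Klf4, Klf5, Esrrb, Nr5a2, Nr0b1, Tfcp2l1, Tbx3 and Zfp42. They were chosen by symbol, and each stands on a single line of a table of 54446 genes quantified in 27 of the 35 samples of the series. Of these libraries, 15 came from untreated mouse embryos that the labels give as wild-type CD-1, 3 each of inner cell mass (ICM) at E3.5 and of epiblast at E4.5, at E5.5, at E6.5 and at E7.5, and 12 from wild-type cultures, 3 each of EpiLCs, 2D EpiSCs, ESC-derived 3D EpiSCs and embryo-derived 3D EpiSCs. Embryos were pooled without being sexed. The ICM was separated by laser, the E4.5 epiblast was isolated by immunosurgery and picked by hand as cells without GFP from a Pdgfrα:H2B-GFP line, which the labels of these libraries do not name, and later epiblasts were freed of extra-embryonic tissue by hand. EpiLCs were ESCs kept for 48 h in FGF2 and Activin A, and 2D EpiSCs were converted from ESCs with the same factors. Both 3D cultures grew in Matrigel with FGF2, Activin A, the tankyrase inhibitor XAV939, which dampens Wnt signalling, and Noggin, a BMP antagonist. One was started from ESCs and the other from E5.5 epiblasts, so dimension and medium changed together, as did origin and genetic background. Naive ESCs and the single-cell and bisulfite samples of the series were not analysed here.

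Naive pluripotency is the state of the preimplantation epiblast and of ESCs kept with LIF and inhibitors of MEK and GSK3. In that state these factors bind many of the same enhancers as Oct4 and Sox2 and sustain each other's expression, with LIF-STAT3 feeding into Klf4 and Tfcp2l1 and relief of Tcf3 repression feeding into Esrrb. The network is taken down around implantation, when the epiblast becomes formative and then primed, whereas Oct4 and Sox2 persist until gastrulation. The 9 genes fall into a trio of Krüppel-like zinc finger factors (Klf2, Klf4, Klf5), a trio of nuclear receptors (Esrrb, Nr5a2 and the atypical, X-linked Nr0b1, which lacks the usual DNA-binding domain), the CP2-family factor Tfcp2l1, the T-box factor Tbx3 and the zinc finger protein Zfp42, also known as Rex1.

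Promoter windows from RefSeq (GRCm38.p6, the build of the table's mm10 coordinates) were given for 7 of the 9 genes. The stretches before the gene start are shown for Klf2 and Klf4, which stood apart from the other members in the 3D cultures, and for Zfp42, which was not called higher with them. Capitals mark the GC box (GGGCGGG), to which KLF and Sp factors can bind, the CACCC box (CCACACCC), and the POU octamer (ATGCAAAT), read on both strands, and each stretch is written on the strand of its gene.
Klf2 (chr8:72318812-72319032, plus strand): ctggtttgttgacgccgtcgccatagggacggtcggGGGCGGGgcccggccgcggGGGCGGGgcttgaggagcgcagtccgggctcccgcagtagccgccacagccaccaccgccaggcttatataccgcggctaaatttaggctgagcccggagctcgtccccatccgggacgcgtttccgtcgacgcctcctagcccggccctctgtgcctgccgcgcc
Klf4 (chr4:55532476-55532725, minus strand): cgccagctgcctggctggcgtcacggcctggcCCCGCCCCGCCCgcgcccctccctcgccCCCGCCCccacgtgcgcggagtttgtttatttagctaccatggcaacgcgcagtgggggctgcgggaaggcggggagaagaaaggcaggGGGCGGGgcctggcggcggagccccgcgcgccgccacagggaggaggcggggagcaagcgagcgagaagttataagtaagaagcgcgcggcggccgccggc
Zfp42 (chr8:43307010-43307259, minus strand): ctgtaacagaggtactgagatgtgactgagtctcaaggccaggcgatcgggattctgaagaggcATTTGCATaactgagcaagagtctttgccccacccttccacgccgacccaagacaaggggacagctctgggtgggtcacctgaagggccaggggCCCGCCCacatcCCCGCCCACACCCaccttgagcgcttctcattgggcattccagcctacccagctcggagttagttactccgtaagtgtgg
The Klf2 stretch held 2 GC boxes and the Klf4 stretch 4, of which 2 overlap. The Zfp42 stretch held 1 octamer on the strand opposite the gene, 2 GC boxes and 1 CACCC box that overlaps the last of them. Of all 32851 promoter windows, 23.4% held a GC box, 3.20% a CACCC box and 1.60% an octamer in the up to 250 bases before the start. None of the 8 short motifs searched, which also included AAGGTCA for nuclear receptors, AGGTGTGA for T-box factors, AAGATGGC for YY1, TTCCNGGAA for STAT and CTTTGATC for TCF, was found before the gene starts of Esrrb, Nr5a2, Nr0b1 or Tfcp2l1. These matches describe letters only, and no binding was measured.

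Expression is given as TPM, which is scaled per length of transcript and per library, so levels can be compared between genes within a library. TPM keeps no record of sequencing depth, which is unknown here, and between 20324 and 26751 genes were above 0 TPM per library. In vivo libraries were made from total RNA and in vitro libraries from poly-A RNA, and the kinds were therefore not tested against each other. The epiblast markers (5 genes, among them Pou5f1 and Sox2) summed to between 292.6 and 2928 TPM per library, lowest at E7.5. Markers of primitive and visceral endoderm (8 genes) summed to 364 to 368 TPM at E3.5, 65.8 to 81.8 at E4.5, 606 to 652 at E5.5, 957 to 1000.2 at E6.5 and 938 to 977 at E7.5, and the visceral endoderm genes Afp and Ttr were at 0 in all E3.5 libraries while all 8 genes exceeded 2 TPM in some library of each stage from E5.5. Markers of trophectoderm and extra-embryonic ectoderm (6 genes) summed to 423 to 442 TPM at E3.5, 295 to 313 at E4.5 and 14.2 to 77.6 from E5.5 to E7.5. In vitro, endoderm markers summed to 46.0 to 63.2 TPM in 2D EpiSCs and to between 0.685 and 22.0 in the other cultures, with Afp, Ttr or both at 0 in every culture group. Differences were tested with limma on log2(TPM + 1), and a gene was called higher or lower at an adjusted p below 0.05 with an absolute log2 fold change above 1. In bulk RNA, fewer cells expressing a gene and less RNA per cell cannot be told apart.

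**Figure D1:**
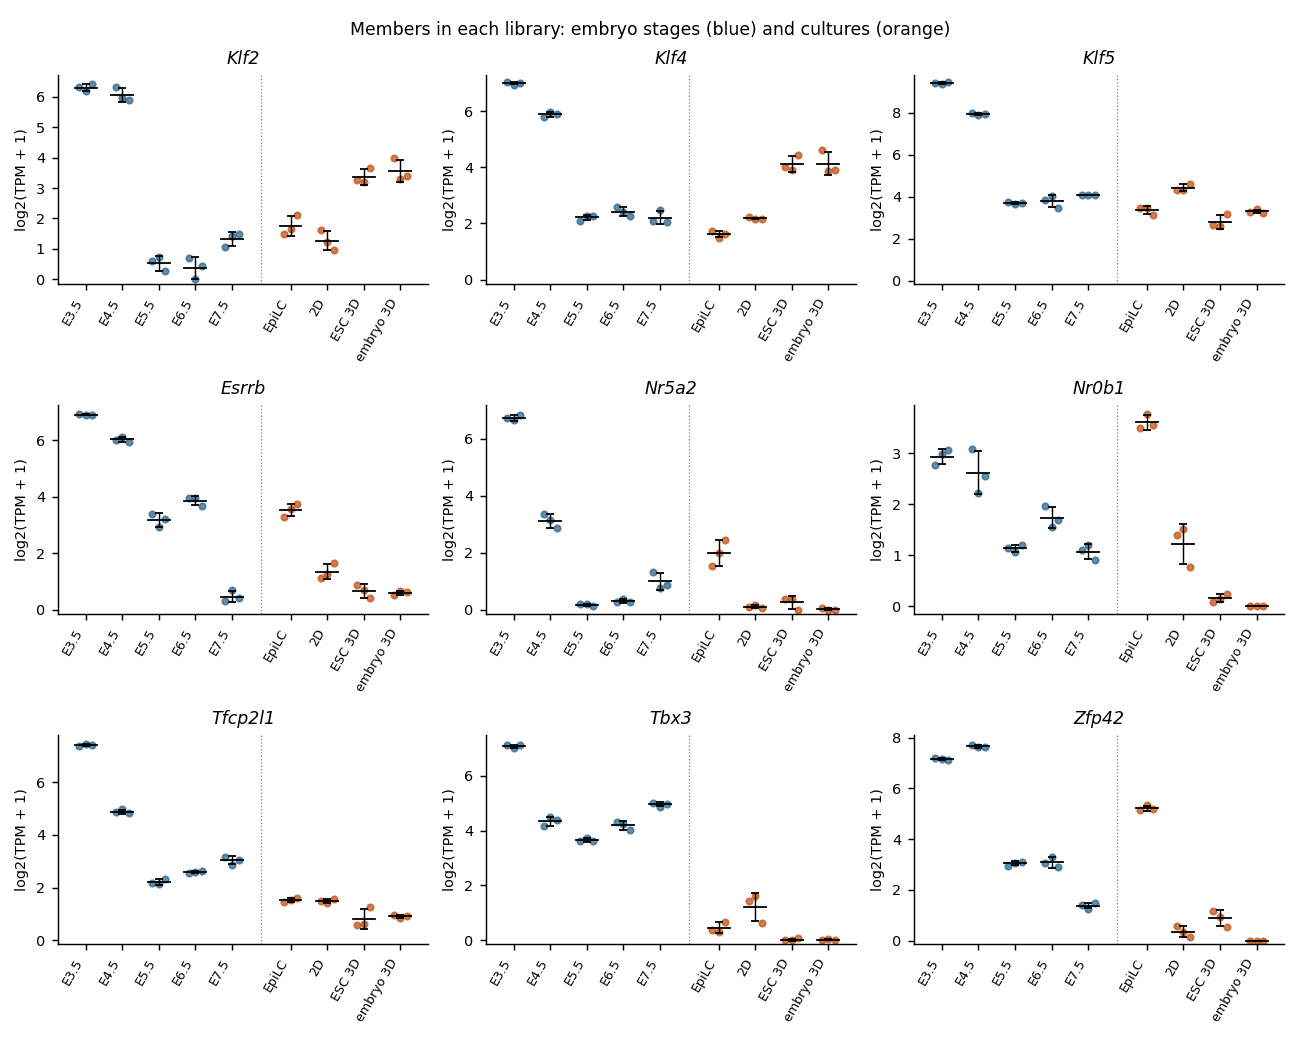
Level of each of the 9 genes, log2(TPM + 1), in each of the 27 libraries, with points for libraries, a line for the mean and bars for the SD of 3 libraries. Embryo stages are in blue and cultures in orange, and all 9 genes sat highest at E3.5 or E4.5 among the embryo stages, while Klf2 and Klf4 sat highest in 3D EpiSCs among the cultures.

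In the embryo, the 9 genes did not leave together. Tfcp2l1, Tbx3 and Nr5a2 were already 5.92-fold, 6.94-fold and 13.6-fold lower at E4.5 than at E3.5 by mean TPM. Klf2, Esrrb, Zfp42 and Nr0b1 did not pass both thresholds at that step, and 8 of the 9 genes were called lower at E5.5 than at E4.5. At E4.5, where endoderm cells were removed by their GFP, 5 of 8 markers of primitive and visceral endoderm were also called lower (Gata6 by a log2 fold change of -3.63), and of 5 tested trophectoderm markers 2 were called lower (Cdx2 and Gata3) and 2 higher (Krt7 and Elf5). Their part in the falls of Tfcp2l1, Tbx3, Nr5a2, Klf4 and Klf5 was not tested. Esrrb and Zfp42 fell again at E7.5, when Tbx3 was the most abundant member.

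The KLF trio held the largest share of the summed TPM of the 9 genes before implantation. Klf5 (chr14:99298691-99315036), which is needed for both ICM and trophectoderm, had 690, 657 and 709 TPM in the E3.5 libraries, 252, 234 and 247 at E4.5, and 12.4, 11.5 and 11.96 at E5.5. No library of a later stage overlapped one of an earlier stage in these steps. Its log2 fold change was -1.49 (SE 0.11) from E3.5 to E4.5 and -4.24 (SE 0.11) from E4.5 to E5.5, with limma adjusted p values of 1.07e-07 and 2.31e-12. Klf4 (chr4:55527143-55532466), a LIF-STAT3 target and reprogramming factor, went from 129, 122 and 126 TPM at E3.5 to 54.3, 61.3 and 59.1 at E4.5 and 3.30, 3.87 and 3.80 at E5.5. Its log2 fold changes were -1.10 (SE 0.11) and -3.67 (SE 0.11), with limma adjusted p values of 2.72e-06 and 9.97e-12, and the first lay inside the fold threshold after rescaling of TPM by median-of-ratios factors (-0.98). Klf2 (chr8:72319033-72321656), whose protein is destabilised by ERK signalling, was not called at the first step. It had 78.2, 71.6 and 83.5 TPM at E3.5 and 78.6, 61.3 and 58.1 at E4.5, and these libraries overlapped (log2 fold change -0.24, 95% interval -0.64 to 0.16, limma adjusted p = 0.290). At E5.5 Klf2 had 0.51, 0.68 and 0.20 TPM, 143-fold below the E4.5 mean. On the log2(TPM + 1) scale its change of -5.52 (SE 0.19) at this step was the most negative of the 9 genes. It passed the filter through E3.5 and E4.5 alone, so this fall is a description and no p is given for it.

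Of the nuclear receptors, Nr5a2 alone was called from E3.5 to E4.5, and all 3 were called from E4.5 to E5.5. Nr5a2 (chr1:136842571-136960448), also known as Lrh-1, had 104, 99.3 and 115 TPM at E3.5, 9.18, 7.92 and 6.24 at E4.5 and 0.14, 0.14 and 0.09 at E5.5. Its log2 fold change of -3.62 (SE 0.15) at the first step passed (limma adjusted p = 1.98e-10). That of -2.95 (SE 0.15) at the second was also called. It is a description without a p, as Nr5a2 passed the filter through E3.5 and E4.5 alone. Esrrb (chr12:86361117-86521628) had 120, 117 and 116 TPM at E3.5 and 63.3, 68.8 and 60.2 at E4.5. The groups did not overlap, but the log2 fold change of -0.87 (SE 0.13) stayed within the fold threshold (limma adjusted p = 7.83e-05). At E5.5 Esrrb had fallen to 9.46, 6.56 and 8.29 TPM (log2 fold change -2.85, limma adjusted p = 4.25e-10). Nr0b1 (chrX:86191764-86195947), also known as Dax1, was the least abundant member at E3.5, with 5.79, 6.87 and 7.31 TPM, and it had 7.44, 3.69 and 4.87 at E4.5. These libraries overlapped (log2 fold change -0.31, 95% interval -0.69 to 0.07). It then fell to 1.22, 1.10 and 1.31 TPM at E5.5, a log2 fold change of -1.48 (SE 0.18, limma adjusted p = 7.10e-06 in the fit that included sex-linked genes). Of 4 tested Y-linked genes, 2 were called lower and 0 higher at E4.5, and 4 higher and 0 lower at E5.5. Among them Eif2s3y had 17.3 ± 1.59 TPM at E3.5, 4.89 ± 2.53 at E4.5 and 24.2 ± 2.93 at E5.5. The part of the sex of the pooled embryos in the Nr0b1 values was not tested.

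Tfcp2l1 (chr1:118627945-118685168), a LIF-STAT3 target, had 164, 171 and 170 TPM at E3.5, 28.1, 30.3 and 27.1 at E4.5 and 3.52, 3.39 and 4.04 at E5.5. The stages did not overlap, and its log2 fold changes of -2.53 (SE 0.09) and -2.67 (SE 0.09) were called at both steps (limma adjusted p = 6.10e-11 and 1.85e-11). Tbx3 (chr5:119670669-119684724), which also acts in extra-embryonic endoderm and later in mesoderm, had 137, 130 and 138 TPM at E3.5 and 16.9, 21.4 and 20.1 at E4.5, a log2 fold change of -2.74 (SE 0.10, limma adjusted p = 8.62e-11). Tbx3 was the exception at implantation: it had 11.4, 12.3 and 11.4 TPM at E5.5, 60.1% of the E4.5 mean, and its log2 difference of -0.68 (SE 0.10, limma adjusted p = 4.90e-05) did not reach the fold threshold. At this step 4 of 8 markers of primitive and visceral endoderm were called higher (Apoa1, Afp, Ttr and Amn) and 0 lower, beside 14.9% and 9.47% of all genes. The part of such cells in the Tbx3 values was not tested. An antisense gene, Tbx3os1, overlaps Tbx3, and the strand setting of the counting is not given in the sources used here, so reads of the pair may not be separated. Zfp42 (chr8:43295063-43306980), a marker of the naive state, had its highest level at E4.5. It had 146, 140 and 139 TPM at E3.5 and 209, 195 and 198 at E4.5, without overlap, a log2 difference of 0.50 (SE 0.10) that passed on p alone (limma adjusted p = 9.79e-04). It then fell to 6.72, 7.40 and 7.57 TPM at E5.5, 27.7-fold below the E4.5 mean (log2 fold change -4.61, SE 0.10, limma adjusted p = 4.86e-13).

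Of the 8 autosomal members, 5 were called lower and 0 higher at E4.5 than at E3.5, where 11.9% of all 11880 tested genes were called lower and 5.88% higher. From E4.5 to E5.5, 7 of 8 were called lower and 0 higher, beside 9.47% and 14.9% of all genes. The median log2 fold change was -1.29 over the members and -0.10 over all genes at the first step, and -3.31 and 0.16 at the second. All 9 members passed the filter of 2 TPM in at least 3 libraries, but Klf2 and Nr5a2 passed through E3.5 and E4.5 alone. For these genes the filter favoured a fall at E5.5, so their part in the count of 7 is a description. Of 5 tested trophectoderm markers, 4 were also called lower at E5.5, and their part in these results was not tested. The E5.5 to E7.5 samples were dissected differently from the earlier ones, and their RNA was fragmented for 4 min at 94 °C against 6 min at 85 °C, so stage and handling cannot be told apart at this step. They cannot be told apart from E3.5 to E4.5 either, as laser separation was followed by immunosurgery and picking by hand at the later stage only.

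**Figure D2:**
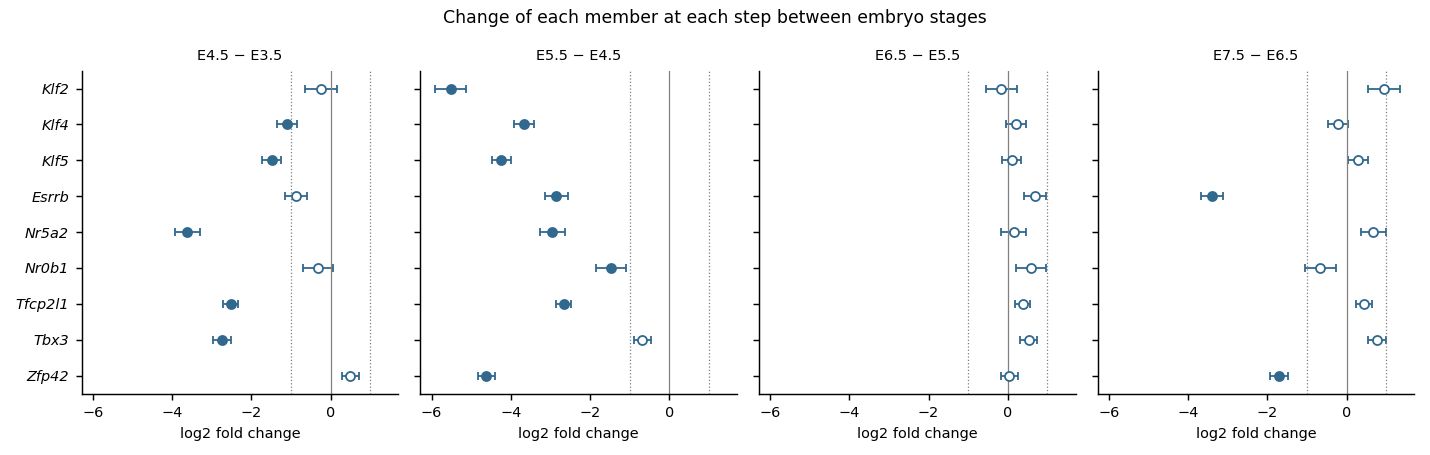
Log2 fold change of each gene at each of the 4 steps between embryo stages, with 95% intervals from limma (n = 3 libraries a stage). Filled points passed both thresholds, dotted lines mark a log2 fold change of 1 in either direction, and Klf2, at -5.52, had the most negative value of the E5.5 step while no point is filled at E6.5.

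Between E5.5 and E6.5, 0 of the 8 autosomal members were called higher or lower by limma, beside 0.715% of all genes called higher and 0.480% lower, and 3 had an unadjusted p below 0.05. Esrrb had 14.6, 14.3 and 11.8 TPM at E6.5, above each E5.5 library (log2 difference 0.69, SE 0.13, limma adjusted p = 0.00515). Tbx3 had 18.8, 18.04 and 15.3 TPM, also without overlap (log2 difference 0.53, SE 0.10). Tfcp2l1 had 4.87, 5.05 and 5.14 TPM, with a log2 difference of 0.37 (SE 0.09), again without overlap. Klf4 had 3.84 to 4.99 TPM, Klf5 10.2 to 15.6 and Zfp42 6.40 to 8.84, each overlapping its E5.5 libraries, and Nr5a2 had 0.21 to 0.32 TPM. None of the differences of Esrrb, Tbx3 and Tfcp2l1 reached the fold threshold. Nr0b1 had 2.88, 1.94 and 2.23 TPM, above each E5.5 library (log2 difference 0.59, SE 0.18). Klf2 was near the bottom of the scale at both stages, and 1 of the E6.5 libraries listed it at 0.

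From E6.5 to E7.5, Esrrb and Zfp42 were called lower. Esrrb fell to 0.23, 0.61 and 0.34 TPM, a log2 fold change of -3.39 (SE 0.13, limma adjusted p = 2.35e-10). Zfp42 went from 7.26, 8.84 and 6.40 TPM to 1.64, 1.39 and 1.78 (log2 fold change -1.70, SE 0.10, limma adjusted p = 1.90e-08). Both were free of overlap, and they were the 2 of 8 autosomal members called lower, beside 1.94% of all genes, while 0 were called higher, beside 10.6%. Tbx3 had 31.6, 28.4 and 30.8 TPM at E7.5, above each E6.5 library, with a log2 difference of 0.77 (SE 0.10, limma adjusted p = 3.46e-05) that stayed within the fold threshold. Klf2 had 1.07, 1.71 and 1.78 TPM, also without overlap, and its difference of 0.95 (SE 0.19) lay just inside the threshold. It passed without replicate 1 of E7.5 (1.08) or replicate 1 of E6.5 (1.11). Tfcp2l1 (7.97, 6.30 and 7.35 TPM, difference 0.44) and Nr5a2 (1.54, 0.70 and 0.84 TPM, difference 0.68) were also above every E6.5 library, within the fold threshold. Klf5 had 15.8 to 16.02 TPM at E7.5 (difference 0.29, and -0.02 after rescaling), and Klf4, at 3.20 to 4.52 TPM, overlapped its E6.5 libraries. Nr0b1 had 1.16, 1.30 and 0.88 TPM, below each E6.5 library, with a log2 difference of -0.66 (SE 0.18, limma adjusted p = 0.00702). The median over all genes was 0.31 at this step. After the same rescaling of TPM that median was 0.01, and 736 genes were called higher and 382 lower in place of 1265 and 231. Of the 8 endoderm markers, 0 were called by limma between E6.5 and E7.5 and 6 had an unadjusted p below 0.05. Of 8 markers of primitive streak and mesoderm, 4 were called higher and 4 lower, with sums of 300.5 to 372 TPM at E6.5 and 252 to 258 at E7.5. Of 5 tested markers of trophectoderm and extra-embryonic ectoderm, 2 were called higher (Cdx2 and Gata3) and 2 lower (Elf5, -2.27, and Fgfbp1, -1.98). The part of any of these lineages in the values of Esrrb, Zfp42 and Tbx3 was not tested.

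Other genes of the naive state moved in the same window. Of 13 tested naive-state genes outside the 9, 6 were called lower at E4.5, 12 at E5.5, 1 at E6.5 and 3 at E7.5. The shares of all genes called lower were 11.9%, 9.47%, 0.480% and 1.94%. The germ cell and maternal factor Dppa3 fell at E4.5 (34.1 ± 2.37 against 355 ± 29.5 TPM, SD, n = 3), as did the methylcytosine dioxygenase gene Tet2 (22.6 ± 0.452 against 135 ± 4.41 TPM). At E5.5 the largest changes of this list were those of Fbxo15 (log2 fold change -4.75) and Dppa5a (-4.27). At E7.5, 3 of the list were called higher, led by Gbx2 (95.1 ± 3.24 against 1.18 ± 0.249 TPM), which also patterns the early nervous system. Among 4 core pluripotency factors, 1 was called at E4.5 (Nanog, log2 fold change -2.56), 0 by limma at E5.5 and at E6.5 (3 and 0 with an unadjusted p below 0.05), and 2 at E7.5 (Nanog -1.58, Pou5f1 -1.52). Of the 11 formative and primed genes, 8 were called higher at E5.5, led by Sox3 (3.29) and Fgf5 (3.18), and 0 lower.

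Relatives of the members were called in both directions. Of 11 tested KLF genes outside the trio, 1 was called higher and 3 lower at E4.5, and 2 higher and 3 lower at E5.5. Klf6 rose at E4.5 (87.3 ± 2.25 against 33.9 ± 1.14 TPM) and fell at E5.5 to 12.98 ± 0.421 TPM. Klf12 was called higher at E5.5 (7.98 ± 1.68 TPM, log2 fold change 1.55). It was also called higher at E7.5 (14.2 ± 1.29 against 3.74 ± 1.81 TPM at E6.5, log2 fold change 1.74). Of 6 tested relatives of the other members, the Tfcp2l1 relative Tfcp2 was called higher at E5.5 (6.02 ± 1.48 TPM, log2 fold change 1.22). It was also called higher at E7.5 (12.4 ± 0.372 against 3.82 ± 0.972 TPM at E6.5). The Tbx3 relative Tbx5 was called higher at E7.5 (3.185 ± 0.377 TPM, listed at 0 at E6.5), and the Zfp42 relative Yy2 fell at E5.5 (log2 fold change -2.09). Of 8 repressors and exit factors, Foxd3 and Nr6a1 were called higher at E5.5 and Tcf15 and Tle4 lower, and Foxd3 was 1.72 higher on the log2 scale.

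**Figure D3:**
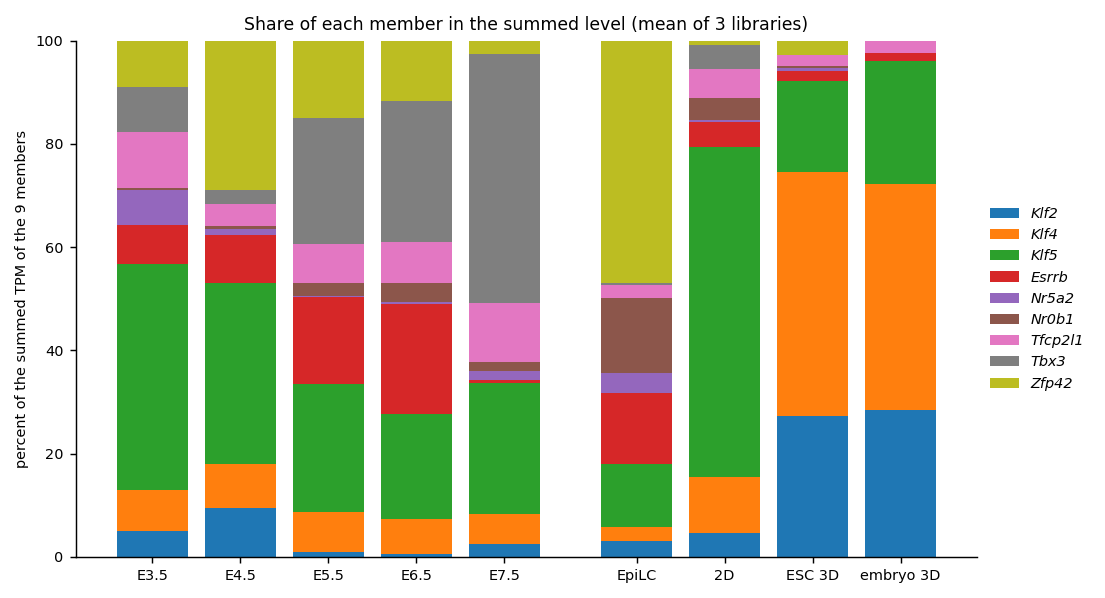
Share of each gene in the summed TPM of the 9 genes, as the mean of 3 libraries per group. Klf5 made up 43.8% at E3.5, Tbx3 48.2% at E7.5, Zfp42 46.9% in EpiLCs and Klf5 63.9% in 2D EpiSCs, while Klf4 led in both 3D cultures with 47.3% and 43.7%.

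The makeup of the network differed between groups, as the plot of shares shows. The 9 genes summed to 1565 ± 44.8 TPM at E3.5, 694 ± 21.5 at E4.5, 48.1 ± 1.03 at E5.5, 63.8 ± 7.23 at E6.5 and 62.7 ± 1.86 at E7.5 (SD, n = 3). In vitro the sums were 77.3 ± 5.19 TPM in EpiLCs, 32.3 ± 1.08 in 2D EpiSCs, 34.7 ± 7.22 in ESC-derived and 38.4 ± 8.45 in the embryo-derived 3D EpiSCs. The KLF trio made up 56.8% ± 0.562 of the sum at E3.5 and 33.4% ± 0.656 at E5.5. In the 3 EpiLC libraries it made up 16.8% to 19.9%, in 2D EpiSCs 79.5% ± 3.49, in ESC-derived 3D EpiSCs 92.2% ± 1.94 and in the embryo-derived 3D EpiSCs 96.2% ± 0.695. The values in vivo and in vitro stand side by side only, as the library types differ.

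Among the cultures, Klf2 and Klf4 formed a pair that was higher in both kinds of 3D EpiSC than in 2D EpiSCs and EpiLCs, whereas Klf5 was highest in 2D EpiSCs and the remaining members were highest in EpiLCs or stayed near or below the filter of 2 TPM in every culture. Tfcp2l1, Tbx3 and Nr5a2 did not pass the filter in vitro, so 5 of the 8 autosomal members were tested. Esrrb and Zfp42, like Nr0b1, passed it through EpiLCs, with 1 library of 2D EpiSCs for Esrrb. The filter thus favoured genes higher in EpiLCs, so their calls, counts and differences against EpiLCs are a description, and no p is given for them. The comparisons below share control samples, so their values are given side by side and are not independent of each other.

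Klf4 had 14.99, 13.8 and 20.6 TPM in ESC-derived 3D EpiSCs, 23.3, 13.7 and 14.0 in the embryo-derived 3D EpiSCs, 3.65, 3.495 and 3.48 in the 2D EpiSCs and 2.31, 1.83 and 2.10 in EpiLCs. Both 3D groups overlapped each other and lay above all other cultures. Against 2D EpiSCs its log2 fold change was 1.92 (SE 0.19, limma adjusted p = 2.88e-05) for the ESC-derived and 1.95 (SE 0.19, limma adjusted p = 1.86e-05) for the embryo-derived culture. Klf2 had 8.61, 8.10 and 11.8 TPM in ESC-derived 3D EpiSCs, 14.8, 8.89 and 9.42 in the embryo-derived 3D EpiSCs, 2.05, 1.35 and 0.97 in the 2D EpiSCs and 1.81, 2.12 and 3.37 in EpiLCs. Again no library of a 3D culture overlapped one of 2D EpiSCs or EpiLCs. Its log2 fold changes against 2D EpiSCs were 2.10 (SE 0.23) and 2.28 (SE 0.23), with limma adjusted p values of 5.93e-05 and 2.61e-05. Against EpiLCs, Klf4 was higher by 2.49 and 2.51 on the log2 scale and Klf2 by 1.62 and 1.80, in the same order of cultures, all called. Neither Klf2 (log2 difference -0.48) nor Klf4 (0.56) was called between 2D EpiSCs and EpiLCs. The levels in the 3D cultures compare with 54.3 to 61.3 TPM of Klf4 and 58.1 to 78.6 TPM of Klf2 in the E4.5 epiblast, and with 3.30 to 3.87 and 0.20 to 0.68 TPM at E5.5, in another library type.

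Replicate 3 of the ESC-derived and replicate 1 of the embryo-derived 3D EpiSCs had the highest Klf2 and Klf4 of their groups. Without them the log2 fold changes against 2D EpiSCs were 1.95 for Klf2 and 1.76 for Klf4 when ESC-derived cells were compared, and 2.07 for Klf2 and 1.71 for Klf4 when embryo-derived cells were, and each was still called. Immediate early genes, a list of 8 that was drawn up after the values were seen (Fos, Fosb, Jun, Junb, Egr1, Ier2, Atf3 and Dusp1), which respond within minutes to growth factors and to handling of cells, were also higher in the 3D cultures. They summed to 986 to 1083 TPM in ESC-derived 3D EpiSCs, 632 to 1518 in the embryo-derived 3D EpiSCs, 280 to 398 in 2D EpiSCs and 141 to 197 in EpiLCs, with the highest sum of each 3D group in the libraries just named. None of the 8 was at 0 throughout a group. Against 2D EpiSCs, 5 of the 8 were called higher in ESC-derived cells and 3 in embryo-derived cells, beside 0.633% and 1.07% of all genes. In 2D EpiSCs, 6 of the 8 were called higher than in EpiLCs, beside 15.2% of all genes. In vivo the 8 genes summed to 975 to 1025 TPM at E4.5 and to between 57.7 and 117 at the other stages. All 8 were called higher at E4.5 than at E3.5 and lower at E5.5 than at E4.5, beside 5.88% and 9.47% of all genes. Their part in the values of Klf2 and Klf4 was not tested.

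Klf5 was called in the other direction. It had 19.2, 19.3 and 23.5 TPM in 2D EpiSCs, 5.28, 5.01 and 8.17 in ESC-derived 3D EpiSCs, 8.57, 9.61 and 8.505 in the embryo-derived 3D EpiSCs and 10.1, 10.2 and 7.78 in EpiLCs. All 2D libraries lay above all others. The log2 fold change against 2D EpiSCs was -1.62 (SE 0.16, limma adjusted p = 3.20e-05) in ESC-derived and -1.13 (SE 0.16, limma adjusted p = 3.24e-04) in the embryo-derived 3D EpiSCs. Between 2D EpiSCs and EpiLCs it was 1.07 (SE 0.16, limma adjusted p = 1.64e-04), which fell below the fold threshold without replicate 3 of 2D EpiSCs (0.98), without replicate 3 of EpiLCs (0.96) and with rescaled TPM (0.86). 2D EpiSCs were also the culture with the highest sums of endoderm markers (given above) and of trophectoderm markers, at 49.1 to 53.8 TPM against 7.59 to 18.2 in the other cultures, and the part of such cells in the Klf5 values was not tested.

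The nuclear receptors were highest in EpiLCs and low in every EpiSC culture. Esrrb had 8.84, 10.7 and 12.3 TPM in EpiLCs, 1.20, 1.39 and 2.15 in 2D EpiSCs, 0.86, 0.64 and 0.33 in ESC-derived and 0.45, 0.58 and 0.54 in the embryo-derived 3D EpiSCs. EpiLCs stood clear of the other 3 cultures. Log2 fold changes against EpiLCs were -2.18 (2D), -2.85 (ESC-derived 3D) and -2.92 (embryo-derived 3D), each with an SE of 0.16. The differences of the 3D cultures from 2D EpiSCs, -0.67 and -0.74, were within the fold threshold (limma adjusted p = 0.00666 and 0.00492). Nr0b1 had 10.3, 12.5 and 10.7 TPM in EpiLCs and 1.64, 1.84 and 0.72 in 2D EpiSCs, a log2 fold change of -2.37 (SE 0.16). It had 0.07, 0.11 and 0.19 TPM in ESC-derived 3D EpiSCs and was listed at 0 in all 3 libraries of embryo-derived 3D EpiSCs. The log2 fold change between ESC-derived 3D and 2D EpiSCs was -1.06 (SE 0.16, limma adjusted p = 4.41e-04), and it fell inside the fold threshold, at -0.98 and -0.92, without replicate 1 or replicate 2 of 2D EpiSCs. The embryo-derived 3D libraries were called lower than 2D EpiSCs (limma adjusted p = 1.71e-04), and no fold is given against a group at 0. Nr5a2 had 1.87, 3.01 and 4.46 TPM in EpiLCs and at most 0.31 TPM in any EpiSC library. Without the filter it was called lower in all 3 EpiSC cultures than in EpiLCs (log2 fold changes -1.73, -1.97 and -1.88 in ESC-derived 3D, embryo-derived 3D and 2D EpiSCs).

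Zfp42 was the most abundant member in EpiLCs. It had 34.3, 39.0 and 35.5 TPM in EpiLCs, 0.51, 0.26 and 0.10 in 2D EpiSCs and 1.22, 0.92 and 0.46 in ESC-derived 3D EpiSCs, and it was listed at 0 in all 3 embryo-derived 3D libraries. No EpiLC library overlapped another culture. The log2 fold change against EpiLCs was -4.86 (SE 0.15) in 2D EpiSCs and -4.34 (SE 0.15) in ESC-derived 3D EpiSCs, as a description. The embryo-derived 3D libraries also lay below EpiLCs. The ESC-derived 3D and 2D libraries overlapped, with a log2 difference of 0.53 (SE 0.15, limma adjusted p = 0.0157). Tfcp2l1 had at most 2.03 TPM in any culture, reached in EpiLCs. Its EpiLC and 2D libraries overlapped, at 1.74, 1.91 and 2.03 against 1.83, 1.67 and 1.98 TPM, and those of both 3D cultures lay below 2D EpiSCs, between 0.49 and 1.38 TPM. Tbx3 had 1.68, 2.05 and 0.56 TPM in 2D EpiSCs, 0.31, 0.24 and 0.60 in EpiLCs, and at most 0.05 TPM in any 3D library. Without the filter its difference from 2D EpiSCs was -1.20 in ESC-derived and -1.21 in the embryo-derived 3D EpiSCs (SE 0.21 each, limma adjusted p = 0.00249 and 0.00262).

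**Figure D4:**
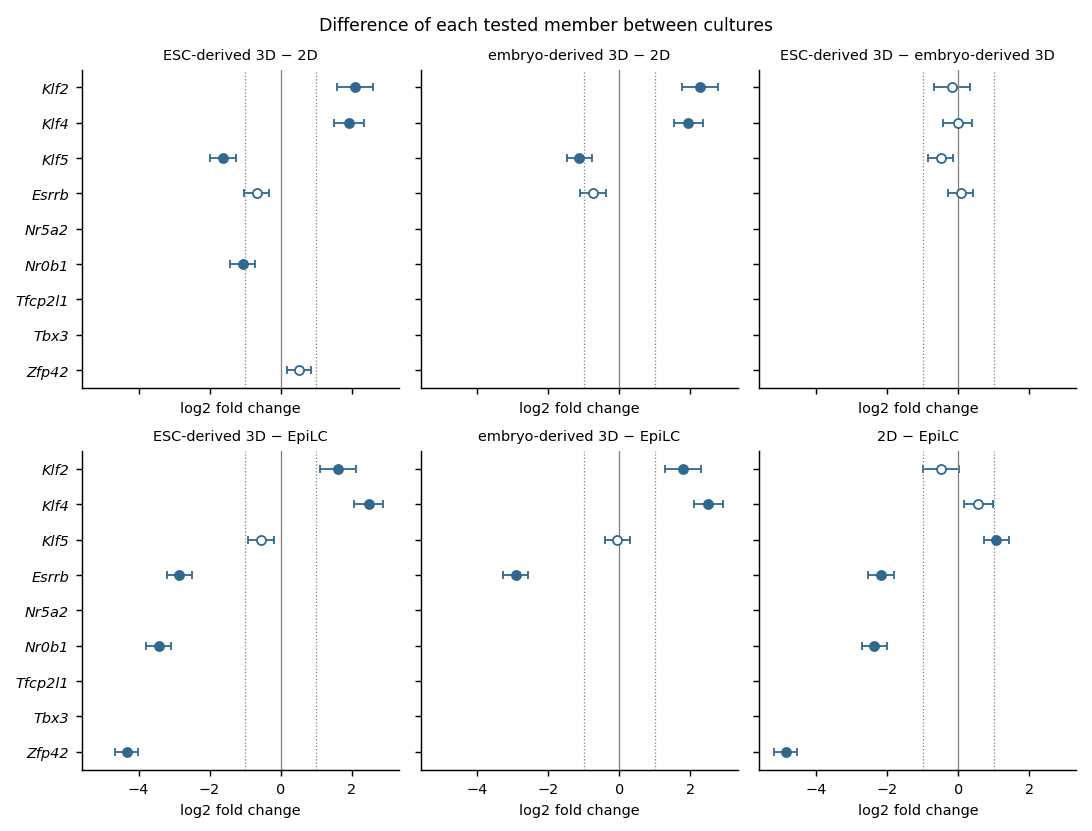
Log2 fold change of each tested gene between cultures, with 95% intervals from limma (n = 3 libraries a group), filled where both thresholds were passed. Genes that did not pass the filter, and comparisons with a group listed at 0, have no point, and Klf2 and Klf4 lie above 1 in all 4 comparisons of a 3D culture with 2D EpiSCs or EpiLCs.

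Against 2D EpiSCs, 2 of the 5 tested autosomal members were called higher and 1 lower among ESC-derived 3D EpiSCs, where 0.633% of 11541 genes were called higher and 9.25% lower. The counts were the same for embryo-derived cells, beside 1.07% and 7.75%. Against EpiLCs, ESC-derived 3D EpiSCs had 2 members called higher and 2 lower (5.33% and 7.11% of all genes), embryo-derived 3D EpiSCs also 2 and 2 (10.5% and 8.28%), and 2D EpiSCs 1 and 2 (15.2% and 5.14%). Those called lower were Esrrb and Zfp42 each time, and the filter favoured genes higher in EpiLCs. The counts of lower members are thus a description beside the shares. Without replicate 3 of EpiLCs the last comparison had 1 called member, Esrrb, as Zfp42 no longer passed the filter and Klf5, at 0.96, no longer passed the fold threshold. Between the 3D cultures 0 of 5 were called by limma, beside 1.98% of all genes in each direction, and 2 had an unadjusted p below 0.05. These were Klf5, with a log2 difference of -0.49 between ESC-derived and embryo-derived cultures (95% interval -0.85 to -0.14, limma adjusted p = 0.0507), and Zfp42, listed at 0 in the latter (limma adjusted p = 0.00289). For Klf2 the difference was -0.18 (95% interval -0.69 to 0.32) and for Klf4 -0.02 (95% interval -0.44 to 0.39). The median over all genes was -0.21 for ESC-derived 3D against 2D EpiSCs, -0.08 for embryo-derived 3D against 2D EpiSCs and 0.18 for 2D EpiSCs against EpiLCs.

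Most calls among other naive-state genes were lower in EpiSCs than in EpiLCs. Of 11 tested, 6 were called lower than in EpiLCs in ESC-derived 3D EpiSCs, 7 in their embryo-derived counterpart and 7 in 2D EpiSCs, with Dppa5a at 1333 ± 319 TPM in EpiLCs and 0.777 ± 0.213, 0.349 ± 0.324 and 1.02 ± 0.291 TPM in those cultures, in that order. Tet2 was called higher in 2D EpiSCs than in EpiLCs (log2 fold change 1.04), and 0 were called higher in either 3D culture. Against 2D EpiSCs, 0 of 11 were called higher in either 3D culture, 2 were called lower in the ESC-derived culture (Tet2 and Lifr, the LIF receptor gene) and 0 by limma in the embryo-derived culture, where 7 had an unadjusted p below 0.05. Of 10 genes that report LIF-STAT3, Wnt and ERK signalling, 2 were called higher in ESC-derived 3D than in 2D EpiSCs (Egr1, 1.46, and the ERK phosphatase gene Dusp6, 1.09) and 3 lower (Pim1, Sp5 and the STAT3 feedback gene Socs3). In embryo-derived 3D EpiSCs, Lef1 was called higher (1.39) and Pim1 (-2.09) and Socs3 lower. Of 11 tested KLF genes outside the trio, 1 was called against 2D EpiSCs in the ESC-derived 3D culture (Klf9, -1.09) and 0 by limma in the embryo-derived one, where 4 had an unadjusted p below 0.05. Of 8 repressors and exit factors, 1 was called higher than in 2D EpiSCs in each 3D culture. This was the naive-state repressor Foxd3, at 52.5 ± 12.3 and 52.5 ± 3.56 against 21.2 ± 1.59 TPM. In the ESC-derived culture 2 were called lower (Nr6a1, -1.28, and Tle4, -1.11), and in the embryo-derived culture 0. The core factor Pou5f1 had 1754 to 1936 TPM in ESC-derived and 1702 to 1904 in the embryo-derived 3D EpiSCs, 1355 to 1511 in 2D EpiSCs and 1309 to 1506 in EpiLCs, and was called in none of the 6 culture comparisons.

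Across libraries the 9 genes correlated positively in vivo and in both directions in vitro. The in vivo libraries span the fall of the summed level from 694 TPM at E4.5 to 48.1 at E5.5, and the in vitro libraries hold no naive culture. Over the 15 in vivo libraries Pearson's r of log2(TPM + 1) ranged from 0.45 to 1.00 over the 36 pairs, with a median of 0.89 and 0 negative values. The highest was that of Tfcp2l1 with Nr5a2, and the lowest those of Tbx3 with Zfp42 and with Esrrb (0.45 each). Over the 12 in vitro libraries the range was -0.88 to 0.97, the median 0.07, and 16 pairs were negative. Klf2 and Klf4 correlated with each other at 0.92 and negatively with each of the other 7 members, from -0.88 to -0.37. Zfp42, Esrrb, Nr5a2 and Nr0b1 correlated at 0.90 to 0.97. In vitro, Tfcp2l1, Tbx3 and Nr5a2 did not pass the filter, and Zfp42 and Nr0b1 were listed at 0 in embryo-derived 3D EpiSCs. In vitro values with these genes thus rest partly on levels near 0. Libraries of a group share their culture or stage, so these values describe differences between 5 stages and 4 cultures and carry no test.

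**Figure D5:**
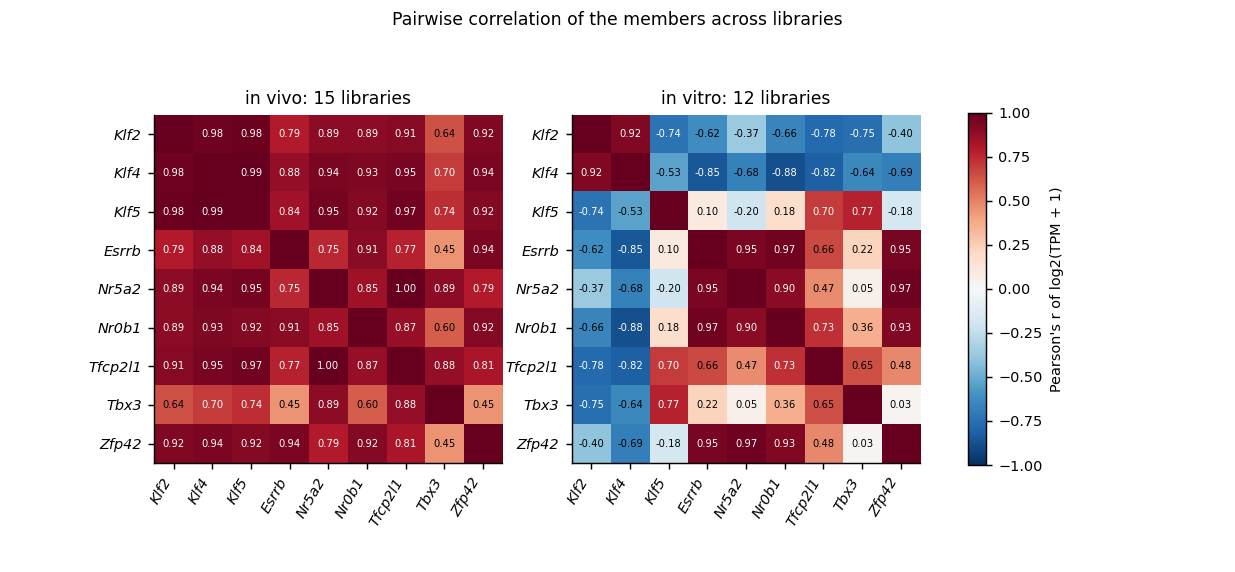
Pearson's r between the 9 genes over the 15 in vivo libraries (left) and the 12 in vitro libraries (right), from log2(TPM + 1), with red for positive and blue for negative values. All pairs are positive in vivo, and in vitro Klf2 and Klf4 form a block with an r of 0.92 that is negative against the other genes.

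The genes most like each member over the 15 in vivo libraries were ranked among 12337 genes by Pearson's r. For Klf2 they were Tspan8, Lgals1 and Ncoa3 (r of 0.995 to 0.996). For Klf4 they were Gm2a, Gm12169 and BC053393 (0.996 to 0.999), and for Klf5 Khdc3, Gm12169 and Aldh3b2, so that Gm12169 stood beside both. For Esrrb they were Sfn, Arhgap22 and Dppa5a (0.975 to 0.989), the last of which is itself a naive-state gene. Nr5a2 had Ddr2, Lgals4 and Slc6a8, and Tfcp2l1 had Rflnb, Slc6a8 and Renbp, with Slc6a8 in both. Tbx3 was most like Dap, Etv3 and Ckap4, Zfp42 most like Sfmbt2, Pnma5 and Pak6, and Nr0b1 most like Sik1, St6galnac4 and Plet1 (0.958 to 0.968). By 5 stage means in place of libraries, the first gene stayed first for Klf4 alone.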

How the data were processed

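The table holds bulk RNA-seq values of 27 libraries. Per the labels and the methods, reads trimmed by cutadapt 2.4 were mapped with STAR to mm10 and quantified per gene by StringTie, and the authors deposited TPM, which sum to 1000000 per library and hold no counts, so depth and counting precision are unknown. A count model could not be used. TPM were taken as log2(TPM + 1) for autosomal protein-coding genes above 2 TPM in at least 3 libraries of a fit. They were tested with limma 3.58.1 (lmFit and eBayes, R 4.3.3) in a fit of 12 in vitro and another of 15 in vivo libraries, with Benjamini-Hochberg adjustment over all genes. The X-linked Nr0b1 came from a fit that also held X-linked and Y-linked genes. On simulated data of the same size with known changes the test was checked. Tables were handled in Python 3.11.15 with pandas 2.3.3.

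The members, lists and tests were chosen with earlier results of these data known. Named were all 9 members, the 3 genes most like each in vivo, and from each list, where called, up to 2 genes a direction. Further list members and levels of Pou5f1 were named after their values were seen. The labels do not say that replicates came from separate cultures or litters, and p-values then measure the spread between these libraries. Replicates 1 and 2 of ESC-derived 3D EpiSCs, 2 and 3 of embryo-derived 3D EpiSCs and 1 and 2 of 2D EpiSCs were closer than other replicates (median absolute log2 difference 0.061, 0.057 and 0.065). Alternatives were another pseudocount, no filter, rescaled TPM, other sets of libraries or genes, a replicate block, an intensity trend, averaging of close replicates, and leaving out each replicate.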

Additional observations from a re-analysis of the deposited data

How the results depend on the processing

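Of the values of single members under the alternatives, 979 kept their direction and their side of the thresholds, 8 lost and 12 gained a call, and 12 changed sign. With a pseudocount of 0.1, which weighs low values more, the number of autosomal members called was 4 in place of 2 at E7.5, with Klf2 and Nr5a2 added as higher, and 5 in place of 3 against 2D EpiSCs in each 3D culture, with Esrrb and Zfp42 added. Between the 3D cultures it was 1 (Zfp42) in place of 0. Leaving out each replicate gave 1 to 3 called members for 2D EpiSCs against EpiLCs, where Zfp42 no longer passed the filter without an EpiLC library, 0 to 1 between the 3D cultures, where Zfp42 passed without replicate 3 of the ESC-derived culture, 2 to 3 at E7.5, and 3 to 4 for either 3D culture against EpiLCs. With rescaled TPM, Klf5 changed sign at E7.5 (-0.02), Klf4 did so between the 3D cultures (0.10), Klf4 fell below the fold threshold at E4.5 (-0.98), and Nr0b1 did so between ESC-derived 3D and 2D EpiSCs (-0.98), as it did with close replicates averaged (-0.93). Small differences changed sign when a replicate was left out: at E6.5 those of Klf2 (-0.32 to 0.03), Klf5 (-0.03 to 0.25) and Zfp42 (-0.07 to 0.13), between the 3D cultures those of Klf2 (-0.33 to 0.03), Klf4 (-0.19 to 0.21) and Esrrb (-0.04 to 0.20), and that of Klf5 between embryo-derived 3D EpiSCs and EpiLCs (-0.17 to 0.00).

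Rescaling also moved the share of calls that were higher, among all genes, from 84.6% to 65.8% at E7.5, from 74.8% to 63.0% for 2D EpiSCs against EpiLCs, and from 49.9% to 64.4% between the 3D cultures. With a pseudocount of 0.1, the genes called between the 3D cultures numbered 374 higher and 345 lower in place of 228 and 229, those at E6.5 136 and 126 in place of 85 and 57, and those called lower at E7.5 354 in place of 231. Those called higher in ESC-derived 3D than in 2D EpiSCs numbered 129 with that pseudocount and 133 after rescaling, in place of 73. Between the 3D cultures, 149 were called lower after rescaling, 100 with close replicates averaged and 427 without replicate 3 of the ESC-derived culture, and leaving out an EpiLC library gave 342 to 375 called lower in 2D EpiSCs in place of 593 and, for replicate 1, 544 in ESC-derived 3D EpiSCs in place of 821. Replicate numbers did not pair libraries (mean correlation of deviations -0.0299 in vitro and -0.0166 in vivo, and 3 of 12 and 4 of 15 libraries most like one of their own number). With the replicate number as a block, 7 members were called at E5.5, 2 at E7.5 and 3 in each 3D culture against 2D EpiSCs, and no call of a member was lost. For members near 0 TPM, such as Nr5a2 and Tbx3 in the cultures, no detection limit can be given, since the depth is unknown.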
